A study of Mus musculus with 8 samples.

Results

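Cytochrome P450 genes of the drug and steroid families were followed in mouse liver after a single oral dose of sorbate. They were taken as all gene symbols of the P450 form (Cyp, a number, a letter and a number), leaving out the Cyp4a genes, Cyp7a1, Cyp7b1, Cyp8b1, Cyp27a1 and Cyp2c70. Of 99 such symbols 86 stayed after these exceptions, and 57 had 40 or more counts summed over the 8 libraries, out of 55487 genes in the table. The tested livers came from 4 samples of male mice of the inbred strain C57Bl/6J, about 10 weeks old, collected 4 hours after 17 mg of potassium sorbate by gavage. Potassium sorbate, a common food preservative, is the salt of sorbic acid, an unsaturated fatty acid with a short chain. The controls were 4 samples from mice of the same sex, strain and age that received water by gavage and were taken after the same 4 hours. No transgene or other treatment is named for either group. The labels do not say that each library came from its own animal, so the p-values reflect only how far libraries of a group lie apart.

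P450 enzymes are haem proteins, most of them set in the membrane of the endoplasmic reticulum, that insert oxygen into small lipid-like molecules with electrons passed on by cytochrome P450 oxidoreductase. In the liver, families 1, 2 and 3 oxidise drugs, toxins and steroid hormones, while family 4 and the Cyp2j enzymes act mainly on fatty acids and eicosanoids, the signalling lipids made from arachidonic acid. Many of these genes are controlled by receptors that sense foreign compounds, chiefly CAR (encoded by Nr1i3), PXR (Nr1i2) and the aryl hydrocarbon receptor AhR, and many are expressed mostly in hepatocytes around the central vein of the lobule.

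Total counts per library ran from 15773932 to 25844731. Levels are given as CPM, counts relative to library size after TMM scaling, which allows for differences in library composition. Changes are log2 ratios of sorbate over control, called at an adjusted p under 0.05 in edgeR's quasi-likelihood test over 13312 genes. Of the 57 P450 genes, 56 passed the filter on low counts and were tested. The exception was Cyp2s1, with 38 counts over the sorbate libraries and 30 over the controls. With 68 counts Cyp2s1 was also the lowest gene inside the limit of 40 counts, followed by Cyp4f18 with 76, and the nearest genes outside it were Cyp2j8 with 25 and Cyp3a44 with 21. The liver identity of the libraries was checked on the level of 6 hepatocyte markers. Their summed level was 70196 to 95030.2 CPM with sorbate and 63739 to 79749 CPM in the controls. Between the groups 0 of the 6 were called, beside 12.4% of all tested genes called in either direction. Control 2 differed from the rest of its group. Saa1, an acute-phase protein gene, had 223, 219, 111 and 214 CPM with sorbate, against 11549, 1896, 10939.7 and 19012 CPM in controls 1 to 4, and Dbp, a clock-output transcription factor gene, had 134, 119, 124 and 99.1 CPM with sorbate, against 4.53, 33.3, 7.16 and 8.76 CPM in the controls.

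P450 transcripts took a larger share of the liver RNA after sorbate. The 57 genes held 2.06%, 1.96%, 1.97% and 2.11% of all counts in the sorbate libraries, against 1.12%, 1.497%, 1.08% and 0.969% in the controls, so that all 4 sorbate libraries lay above all 4 controls. The means were 2.02% ± 0.0729 and 1.17% ± 0.230 (SD, n = 4 each), and without Cyp2e1, the most abundant member, they were 1.29% ± 0.0124 and 0.798% ± 0.180. In single genes, 19 of the 56 tested members were called higher with sorbate and 0 were called lower. The 19 higher genes are 33.9% of the members, beside 6.14% of all tested genes, and 6.3% of all tested genes were called lower. The count of 0 lower genes comes from edgeR. At an unadjusted p under 0.05, 3 members were lower (Cyp2d40, Cyp4f18 and Cyp2r1), and DESeq2 called 1 of them, Cyp2r1 (log2 fold change −0.41, adjusted p = 0.0456). The median log2 fold change was 0.42 over the members and −0.019 over all tested genes, and it was above 0 in 38 members, beside 47.8% of all genes. Every sorbate library exceeded every control in 22 members, beside 9.42% of all genes, and every sorbate library lay below every control in 1, Cyp4f18, beside 8.32% of all genes. Of the 19 called genes 8 differed by 2-fold or more. Bulk liver cannot tell more cells of a type from more RNA per cell.

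**Figure D1:**
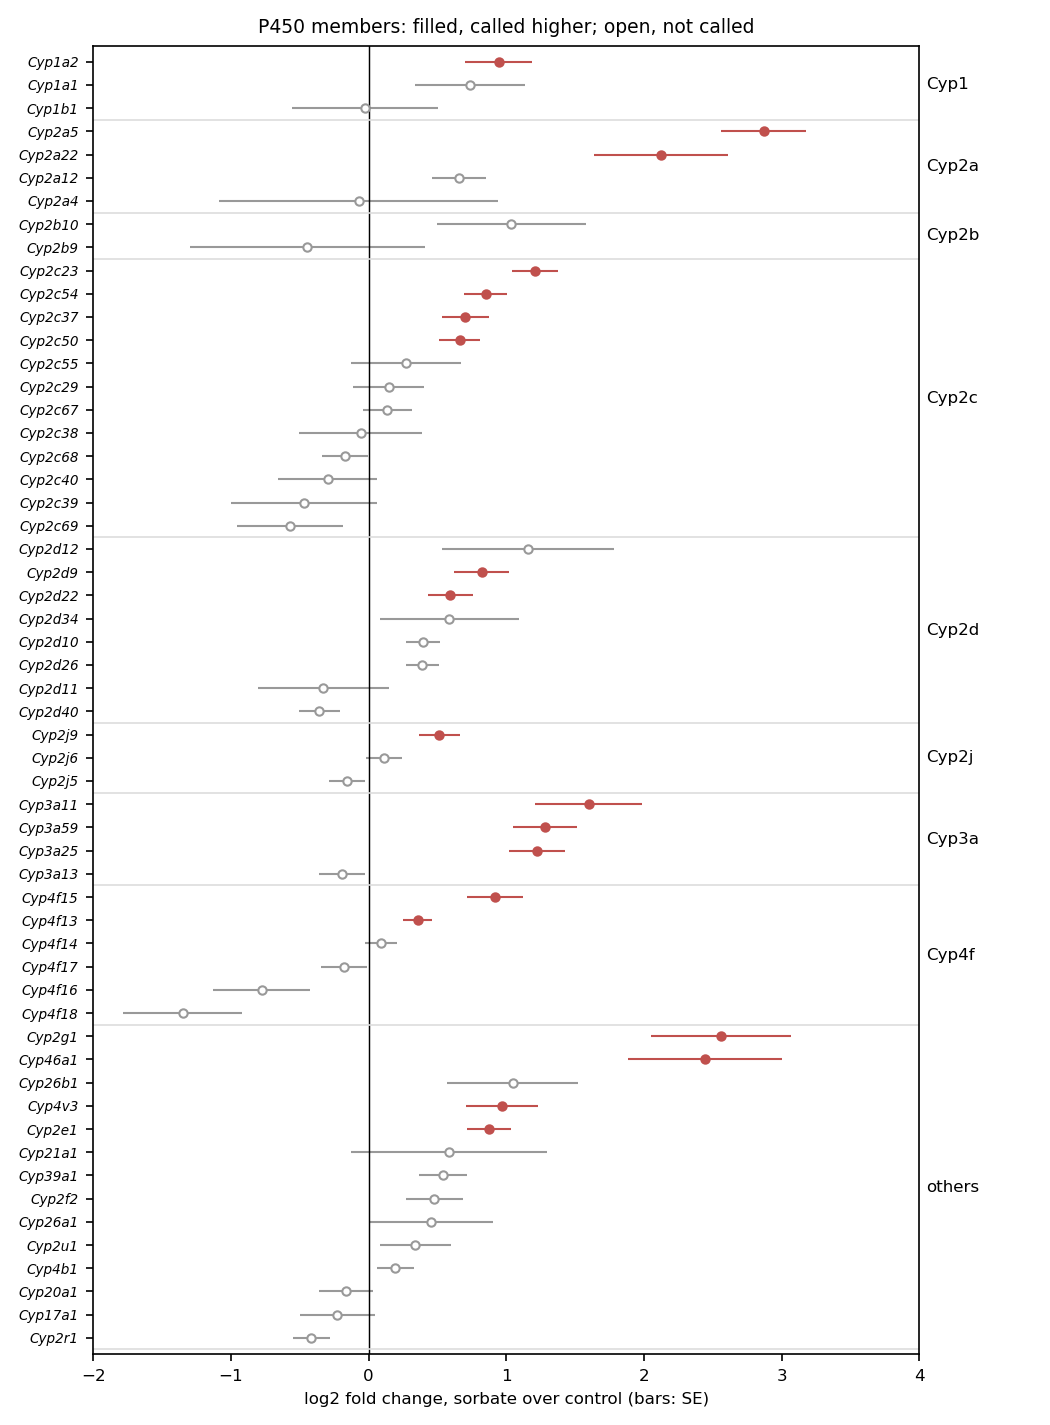
Log2 fold change of sorbate over control (x axis) for the 56 tested P450 genes, grouped by subfamily; bars are standard errors, filled points are genes called higher and open points are genes not called. The 19 filled points all lie right of 0, from 0.36 for Cyp4f13 to 2.87 for Cyp2a5, and no filled point lies left of it.

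The summed level of a subfamily does not depend on how reads are split among its own near-identical genes, though it does depend on any reads discarded for matching several, and it is given first, without a test. Cyp2a sums were 1179, 966, 1231 and 1229.9 CPM with sorbate, against 388, 719, 415 and 366 CPM in the controls, and Cyp3a sums were 1781, 2252, 1583 and 1655 CPM with sorbate, against 843, 1108, 788 and 681 CPM in the controls. These were the subfamilies of the largest ratio, log2 1.29 for Cyp2a and 1.09 for Cyp3a, and neither overlapped between the groups. Cyp2d summed to 3291 ± 101 CPM with sorbate and 2244 ± 337 CPM in the controls (SD, n = 4 each), Cyp2c to 2704 ± 94.4 CPM with sorbate and 2137 ± 407 CPM in the controls (SD, n = 4 each) and Cyp4f to 509 ± 37.7 CPM with sorbate and 404 ± 42.4 CPM in the controls (SD, n = 4 each), again without overlap, at log2 ratios of 0.55, 0.34 and 0.33. Cyp1 summed to 415 ± 78.6 CPM with sorbate and 216 ± 82.1 CPM in the controls (SD, n = 4 each), with an overlap between the groups through control 2 and sorbate 2. Cyp2b was barely expressed, at 2.23 ± 1.32 CPM with sorbate and 1.55 ± 0.866 CPM in the controls (SD, n = 4 each), and Cyp2j summed to 754 ± 53.6 CPM with sorbate and 815 ± 99.0 CPM in the controls (SD, n = 4 each); both overlapped. The remaining genes, led by Cyp2e1, reached 8749.8 ± 822 CPM with sorbate and 4988 ± 743 CPM in the controls (SD, n = 4 each) without overlap. Without Cyp2e1 they summed to 1717 ± 249.9 CPM with sorbate and 1147 ± 339 CPM in the controls (SD, n = 4 each), and the groups overlapped, with sorbate 2 at 1380.3 CPM and control 2 at 1651 CPM.

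**Figure D2:**
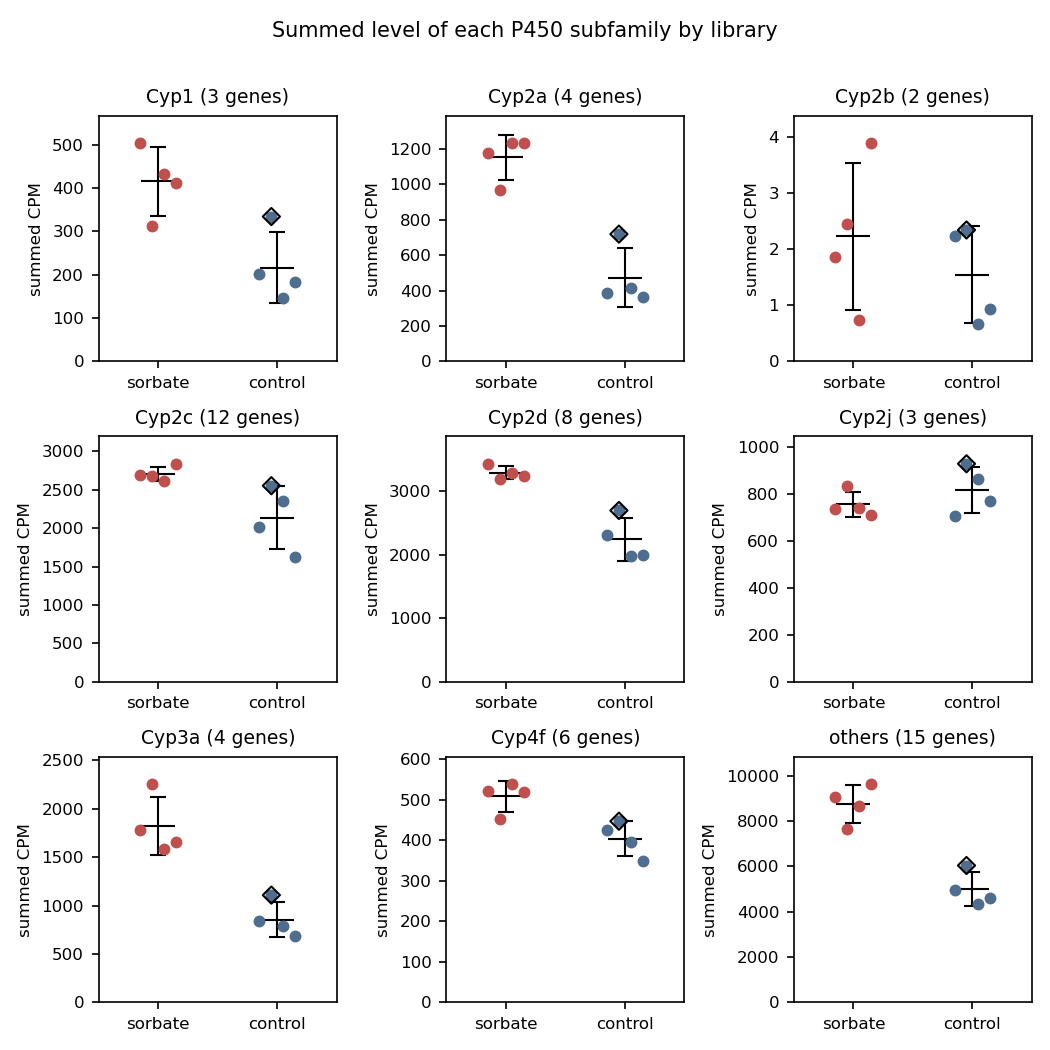
Summed level in CPM (y axis, from 0) of the members of each P450 subfamily in the 4 sorbate and 4 control libraries; points are libraries, the outlined diamond is control 2, and lines with bars are the mean and SD. Sorbate and control points separate for Cyp2a, Cyp2c, Cyp2d, Cyp3a, Cyp4f and the remaining genes, and overlap for Cyp1, Cyp2b and Cyp2j.

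The Cyp2a genes on chromosome 7 held the gene of the largest change. Cyp2a5, the mouse coumarin hydroxylase, also known for oxidising nicotine, had 532, 399, 548 and 591 CPM in the sorbate libraries, against 62.1, 123, 57.0 and 41.0 CPM in the controls (ENSMUSG00000005547, chr7:26835305-26843548, + strand). The lowest sorbate library was above the highest control, which was control 2, and Cyp2a5 rose with sorbate (log2 fold change 2.87, SE 0.31, adjusted p = 8.45e-04). Without control 2 its log2 fold change was 3.29. Cyp2a4, which encodes a steroid hydroxylase higher in female than in male mouse liver, lies 520.2 kb away and is a near-identical copy: 28.1% of the 50-base windows of Cyp2a5 transcripts also occur in Cyp2a4. Cyp2a4 had 2.77, 0.934, 0.503 and 0.183 CPM with sorbate, against 0.199, 4.08, 0.580 and 0.0492 CPM in the controls, and the groups overlapped (log2 fold change −0.072, adjusted p = 0.973). That value rests on control 2, the highest library. In the fit without it Cyp2a4 had a log2 fold change of 2.05 and was not called (adjusted p = 0.0988). On average Cyp2a4 had 1.10 CPM with sorbate against 1.23 CPM in the controls, where Cyp2a5 had 517 CPM with sorbate against 70.8 CPM in the controls, so a small part of the Cyp2a5 reads set to the wrong copy would be large beside Cyp2a4.

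The copies also have near-identical promoters. These are shown because Cyp2a5 passed the test and Cyp2a4 did not; the difference between the 2 changes was not tested. The bases come from RefSeq promoter windows on GRCm38.p6, and bases that GENCODE places inside Cyp2a5 were left off, with Cyp2a4 cut to the same length. The regions are chr7:26835089-26835304 for Cyp2a5 and chr7:26306942-26307157 for Cyp2a4, both on the + strand, and capitals mark bases that differ or have no partner in the other.
Cyp2a5: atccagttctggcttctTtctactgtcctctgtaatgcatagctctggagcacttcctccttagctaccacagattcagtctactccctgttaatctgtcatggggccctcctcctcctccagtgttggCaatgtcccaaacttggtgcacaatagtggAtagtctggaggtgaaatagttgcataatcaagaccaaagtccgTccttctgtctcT
Cyp2a4: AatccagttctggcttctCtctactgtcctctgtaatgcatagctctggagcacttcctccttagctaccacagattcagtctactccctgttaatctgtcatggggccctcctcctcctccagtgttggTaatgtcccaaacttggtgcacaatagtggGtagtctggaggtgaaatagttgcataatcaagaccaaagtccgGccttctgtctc
Of 217 aligned positions 211 were the same (97.24%), and 4 held different bases. The 2 capitals without a partner, the first base of Cyp2a4 and the last of Cyp2a5, come from where the stretches begin and end.

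Both genes next to Cyp2a5 among the members, Cyp2g1 and Cyp2a22, were at a few CPM. Cyp2g1, best known from the olfactory mucosa, lies 14.1 kb from Cyp2a5 and had 1.72, 1.56, 1.60 and 0.791 CPM in the sorbate libraries, against 0.0498, 0.503, 0.290 and 0.148 CPM in the controls. It rose with sorbate on few reads, 129 over the sorbate libraries and 19 over the controls (log2 fold change 2.56, SE 0.51, adjusted p = 0.0113). Cyp2a22, on the other side of Cyp2a5 at 88.08 kb, had 1.94, 3.60, 0.961 and 2.43 CPM with sorbate, against 0.647, 0.838, 0.193 and 0.394 CPM in the controls, from 194 and 40 reads (log2 fold change 2.12, SE 0.49, adjusted p = 0.0204). The call failed when control 3 or 4, or sorbate 2 or 4 was left out (adjusted p = 0.0535 to 0.0659). Of its windows 20.2% are shared with other transcripts, chiefly Cyp2a12, a far more abundant gene. Cyp2a12, which encodes a steroid and bile acid hydroxylase in mouse liver, had 642, 563, 682 and 636 CPM with sorbate, against 325, 590.4, 357 and 325 CPM in the controls. Control 2 lay among the sorbate libraries and the gene was not called (log2 fold change 0.66, adjusted p = 0.0515). Without control 2 it was called, at a log2 fold change of 0.92 (adjusted p = 1.99e-04).

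**Figure D3:**
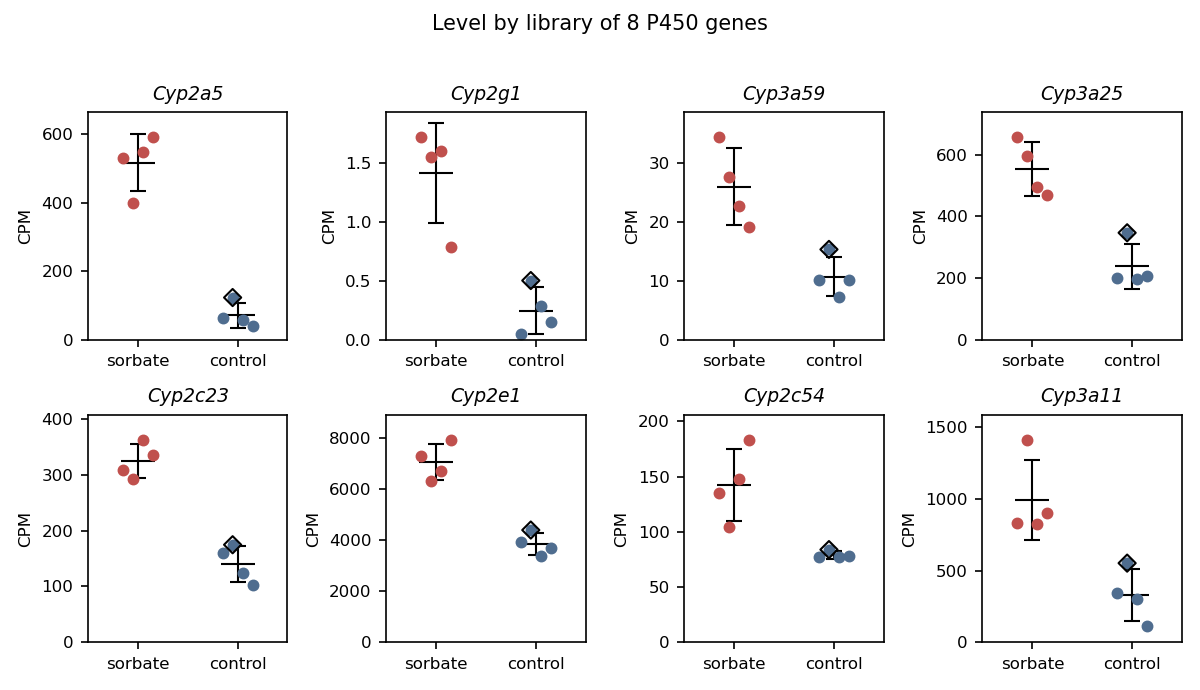
Level in CPM (y axis, from 0) of 8 P450 genes in each of the 4 sorbate and 4 control libraries; points are libraries, the outlined diamond is control 2, and lines with bars are the mean and SD. No gene shown has an overlap between the groups, and control 2 is the highest control in each, as for Cyp2a5 with 123 CPM beside 41.0 to 62.1 CPM in the other controls.

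Of the 4 Cyp3a genes tested, 3 rose with sorbate, beside 33.9% of all members and 6.14% of all tested genes. Cyp3a enzymes oxidise a wide range of drugs and hydroxylate testosterone. Cyp3a11, the best-known target of PXR, had 835, 1412, 823 and 906 CPM in the sorbate libraries, against 344, 553, 302 and 113 CPM in the controls (log2 fold change 1.60, SE 0.39, adjusted p = 0.0251). No library of one group reached the other, but the call failed when control 1 or 3, or sorbate 2, 3 or 4 was left out (adjusted p = 0.0502 to 0.0801). Cyp3a25 (ENSMUSG00000029630, chr5:145977194-146009618, − strand) had 656, 596, 496 and 469.6 CPM with sorbate, against 199.8, 347, 197 and 206 CPM in the controls (log2 fold change 1.22, SE 0.20, adjusted p = 0.00569). Cyp3a59 (ENSMUSG00000061292, chr5:146079257-146113287, + strand), 69.64 kb from Cyp3a25, was about as changed at a far lower level, with 34.4, 27.6, 22.8 and 19.2 CPM with sorbate, against 10.1, 15.4, 7.35 and 10.2 CPM in the controls (log2 fold change 1.28, SE 0.23, adjusted p = 0.00773). Both stayed called when any 1 library was left out, but 26.8% of the windows of Cyp3a25 and 30.0% of those of Cyp3a59 are shared with other transcripts, mostly each other's, so the split of reads between them is uncertain. Cyp3a13, the member that lies apart from the others on chromosome 5, 7933 kb from Cyp3a11, had 256, 217, 241 and 260.0 CPM with sorbate, against 289.6, 193, 281 and 352 CPM in the controls. The groups overlapped, and it was not called (log2 fold change −0.19, adjusted p = 0.470).

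The 3 called Cyp3a genes lie near each other, and the bases before their starts are shown, up to 250, from the same RefSeq windows on GRCm38.p6 without what GENCODE places inside the genes. The regions are chr5:145879965-145880104 on the − strand for Cyp3a11, chr5:146009619-146009868 on the − strand for Cyp3a25 and chr5:146079008-146079256 on the + strand for Cyp3a59. Capitals mark AGGTCA, the half-site bound by many nuclear receptors, or its reverse complement.
Cyp3a11: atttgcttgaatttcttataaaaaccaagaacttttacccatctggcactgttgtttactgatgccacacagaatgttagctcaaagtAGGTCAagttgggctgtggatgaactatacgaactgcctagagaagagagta
Cyp3a25: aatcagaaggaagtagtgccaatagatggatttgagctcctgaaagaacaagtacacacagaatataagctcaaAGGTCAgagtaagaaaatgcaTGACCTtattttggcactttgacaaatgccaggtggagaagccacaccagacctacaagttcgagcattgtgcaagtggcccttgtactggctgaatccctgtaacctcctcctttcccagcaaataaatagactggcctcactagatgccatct
Cyp3a59: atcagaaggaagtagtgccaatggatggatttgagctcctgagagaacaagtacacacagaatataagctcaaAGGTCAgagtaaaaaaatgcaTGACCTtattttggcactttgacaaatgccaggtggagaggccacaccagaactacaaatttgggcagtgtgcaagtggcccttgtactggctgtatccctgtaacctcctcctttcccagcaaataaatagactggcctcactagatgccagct
The half-site begins 162 bases before the RefSeq start in Cyp3a11, 176 and 155 bases before it in Cyp3a25, and 177 and 156 bases before it in Cyp3a59. Over the whole 250 bases before the start, Cyp3a25 and Cyp3a59 were 94.82% identical, while that of Cyp3a11 was 55.63% identical to the first and 56.29% to the second. Promoter windows of 300 bases, 250 before to 50 after the start, were found for 46 of the 57 members, 51 windows in all. AGGTCA on either strand stood in 12 of the 51 (23.5%), beside 16.3% of all 32851 promoter windows of the RefSeq table. Outside Cyp3a it stood in windows of Cyp2a5, which was called. It also stood in windows of Cyp2a4, Cyp2b9, Cyp2c29, Cyp2c39, Cyp2d40, Cyp2f2 and Cyp2j5, which were not called. GCGTG, the core bound by AhR with its partner ARNT, stood in 21.6% of the member windows and 32.4% of all windows, and the E-box CACGTG in 3.92% and 7.15%. The sites TTACGTAA and TTATGTAA, bound by Dbp and its relatives, stood in 0 of the member windows and in 0.119% and 0.938% of all windows. A match describes the letters only.

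Of the 12 Cyp2c genes tested, 4 rose, beside 33.9% of all members and 6.14% of all tested genes. Cyp2c enzymes oxidise drugs and turn arachidonic acid into epoxides and hydroxy acids. Cyp2c23, an arachidonic acid epoxygenase (ENSMUSG00000025197, chr19:44005022-44029208, − strand), had 309, 292, 362 and 336 CPM in the sorbate libraries, against 159.8, 175, 124 and 103 CPM in the controls (log2 fold change 1.21, SE 0.17, adjusted p = 0.00257). None of its windows is shared with another transcript, it lies 3891 kb from the nearest of the other called Cyp2c genes, and it stayed called without any 1 library. The 3 others lie side by side on chromosome 19, with 25.7 kb between Cyp2c37 and Cyp2c54 and 15.86 kb between Cyp2c54 and Cyp2c50. Cyp2c54 had 135, 105, 148 and 183 CPM with sorbate, against 77.1, 83.9, 77.3 and 78.0 CPM in the controls (log2 fold change 0.85, SE 0.15, adjusted p = 0.00773). Cyp2c37 had 105, 84.9, 98.1 and 149.7 CPM with sorbate, against 57.9, 64.7, 74.7 and 71.2 CPM in the controls (log2 fold change 0.70, SE 0.17, adjusted p = 0.0249). For Cyp2c37 the call failed when control 1, 3 or 4, or sorbate 1 or 4 was left out (adjusted p = 0.0518 to 0.0680). Cyp2c50 had 495, 433, 521 and 536 CPM with sorbate, against 280.5, 403, 295 and 277 CPM in the controls (log2 fold change 0.66, SE 0.15, adjusted p = 0.0188). For Cyp2c50 the call failed when control 1, 3 or 4, or sorbate 1, 3 or 4 was left out (adjusted p = 0.0513 to 0.0682). The groups did not overlap in any of these genes. Between 18.3% and 30.1% of the windows of the 3 neighbours are shared, chiefly among themselves. The most abundant Cyp2c genes did not pass the test. Cyp2c29, which is also known as a CAR target, had 771, 1176, 886 and 936 CPM with sorbate, against 882, 1126, 960.0 and 436 CPM in the controls, and the groups overlapped (log2 fold change 0.15, adjusted p = 0.740). Cyp2c67 had 429.9 CPM with sorbate against 391 CPM in the controls (log2 fold change 0.14, adjusted p = 0.646), and of its windows 52.8% are shared, mostly with Cyp2c40. The other 6 Cyp2c genes, at log2 fold changes of −0.57 for Cyp2c69 to 0.27 for Cyp2c55, overlapped between the groups as well.

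Of the 8 Cyp2d genes tested, 2 rose, beside 33.9% of all members and 6.14% of all tested genes. Cyp2d9, a testosterone hydroxylase higher in male than in female mouse liver, had 1551, 1563, 1519 and 1466 CPM in the sorbate libraries, against 844, 1249, 717 and 642 CPM in the controls (log2 fold change 0.82, SE 0.20, adjusted p = 0.0246). The sorbate libraries lay within 1466 to 1563 CPM, while the controls were spread and control 2 was the highest. The call failed when control 1, 3 or 4, or sorbate 1, 2, 3 or 4 was left out (adjusted p = 0.0528 to 0.0870). Cyp2d22, often regarded as the mouse counterpart of human CYP2D6, had 272, 199, 259 and 256 CPM with sorbate, against 190.5, 191, 128 and 144 CPM in the controls (log2 fold change 0.59, SE 0.16, adjusted p = 0.0372). Its call failed when control 3 or 4, or sorbate 1, 3 or 4 was left out (adjusted p = 0.0920 to 0.111). Cyp2d10 and Cyp2d26, both abundant, had no overlap between the groups and missed the threshold. Cyp2d10 had 674 CPM with sorbate against 513 CPM in the controls (log2 fold change 0.39, SE 0.13, adjusted p = 0.0652), and Cyp2d26 had 727 CPM with sorbate against 555 CPM in the controls (log2 fold change 0.39, SE 0.12, adjusted p = 0.0562). Of the windows of Cyp2d10 35.8% are shared, mostly with Cyp2d11, and of those of Cyp2d9 21.8%, of which Cyp2d12 holds the largest part of any single gene at 6.76%. Cyp2d40 had 115, 143, 83.9 and 100.2 CPM with sorbate, against 138, 148, 138 and 142 CPM in the controls (log2 fold change −0.36, adjusted p = 0.145), and the 3 others, Cyp2d11, Cyp2d12 and Cyp2d34, were below 10 CPM in every library and not called.

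Cyp2e1 was the most abundant of these transcripts in every library. It encodes the enzyme that oxidises ethanol, acetone and paracetamol. Cyp2e1 (ENSMUSG00000025479, chr7:140763739-140774987, + strand) had 7264, 6288, 6680.4 and 7901 CPM in the sorbate libraries, against 3925, 4388, 3369 and 3681 CPM in the controls (log2 fold change 0.87, SE 0.16, adjusted p = 0.00776). It made up 34.3% to 39.0% of the summed P450 level with sorbate and 29.6% to 34.8% in the controls, and its call held without any 1 library. Per kilobase of exon, the scale on which genes can be compared, its level in RPKM (CPM per kilobase) was 3259 ± 326 with sorbate and 1779.8 ± 199 in the controls (SD, n = 4 each). The next genes by mean level on that scale were Cyp2f2, with 551 ± 103 with sorbate and 396 ± 108 in the controls, and Cyp2d9, with 574 ± 16.4 with sorbate and 325 ± 102 in the controls, which lie within each other's spread. Cyp2f2, known for oxidising naphthalene and for its place around the portal vein, had 1122, 841, 1347 and 1155 CPM with sorbate, against 753, 1123, 691 and 639.5 CPM in the controls. The groups overlapped and it was not called (log2 fold change 0.48, adjusted p = 0.150), and part of its exons overlaps Gm15883 on the genome.

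Of the 3 Cyp1 genes, 1 rose, beside 33.9% of all members and 6.14% of all tested genes. Cyp1a2, a target of AhR that oxidises caffeine and aromatic amines, had 502, 311, 431 and 412 CPM in the sorbate libraries, against 201, 333, 144 and 183 CPM in the controls (log2 fold change 0.94, SE 0.24, adjusted p = 0.0315). Sorbate 2 lay below control 2, so the groups overlapped, and the call failed when control 1, 3 or 4, or sorbate 1, 3 or 4 was left out (adjusted p = 0.0765 to 0.0930). Cyp1a1, the most inducible AhR target, was near 1 CPM or below in all libraries, at 0.822, 1.24, 0.412 and 0.609 CPM with sorbate, against 0.348, 0.447, 0.532 and 0.541 CPM in the controls (log2 fold change 0.73, adjusted p = 0.247). Cyp1b1 was at the same low level, with 0.567 CPM with sorbate against 0.588 CPM in the controls (log2 fold change −0.023, adjusted p = 0.984). The Cyp2b genes, the classical targets of CAR, were at 4 CPM or less. Cyp2b10 had 1.31, 1.42, 0.549 and 3.59 CPM with sorbate, against 1.44, 0.503, 0.677 and 0.639 CPM in the controls (log2 fold change 1.04, adjusted p = 0.230), and Cyp2b9, higher in female mice, had 0.561, 1.02, 0.183 and 0.304 CPM with sorbate, against 0.797, 1.84, 0 and 0.295 CPM in the controls (log2 fold change −0.45, adjusted p = 0.764). Neither was called, and in Cyp2b10 only sorbate 4 was above the highest control.

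Among the enzymes of fatty acids and eicosanoids, 4 of 11 tested genes rose and 0 fell. Of all members 33.9% were called higher, and of all tested genes 6.14% were called higher and 6.3% lower. Cyp4f15, an omega-hydroxylase of the family that inactivates leukotriene B4, had 166, 139.8, 191 and 173 CPM in the sorbate libraries, against 79.3, 134, 73.2 and 68.3 CPM in the controls (log2 fold change 0.92, SE 0.21, adjusted p = 0.0188). For Cyp4f15 the call failed when control 1, 3 or 4, or sorbate 3 or 4 was left out (adjusted p = 0.0542 to 0.0667). Cyp4f13 had 57.7, 49.6, 60.1 and 59.4 CPM with sorbate, against 42.5, 48.1, 41.5 and 45.1 CPM in the controls (log2 fold change 0.36, SE 0.10, adjusted p = 0.0468). For Cyp4f13 the call failed when control 1, 3 or 4, or sorbate 1, 3 or 4 was left out (adjusted p = 0.0946 to 0.137). Cyp4v3, the mouse counterpart of a human fatty acid omega-hydroxylase whose loss causes a retinal dystrophy, had 566, 435, 520.3 and 454 CPM with sorbate, against 199, 430.1, 199 and 182 CPM in the controls (log2 fold change 0.97, SE 0.26, adjusted p = 0.0366). Control 2 was close to the sorbate libraries, with sorbate 2 just above it, and the call failed when control 1, 3 or 4, or sorbate 1, 2, 3 or 4 was left out (adjusted p = 0.0578 to 0.114). Cyp2j9 had 10.8, 12.3, 10.9 and 9.92 CPM with sorbate, against 6.07, 8.99, 7.54 and 8.12 CPM in the controls (log2 fold change 0.51, SE 0.15, adjusted p = 0.0437). Its call failed when control 1, 3 or 4, or sorbate 1, 2, 3 or 4 was left out (adjusted p = 0.0727 to 0.113). Of the genes of the group that did not pass, Cyp2j5, an arachidonic acid epoxygenase, had 642 CPM with sorbate against 715 CPM in the controls (log2 fold change −0.15, adjusted p = 0.457), Cyp4f14 had 269 CPM with sorbate against 252 CPM in the controls (log2 fold change 0.092, adjusted p = 0.636), and Cyp2j6 had 101 CPM with sorbate against 93.2 CPM in the controls (log2 fold change 0.11, adjusted p = 0.597). Cyp4f18, best known from neutrophils, was the member whose sorbate libraries all lay below the controls, with 0.149, 0.445, 0.274 and 0.183 CPM with sorbate, against 0.946, 0.670, 0.532 and 0.541 CPM in the controls. It rested on 23 and 53 reads and missed the threshold (log2 fold change −1.35, SE 0.43, adjusted p = 0.0646). Its exons overlap those of Zfp961. Of 5 neutrophil markers 1 passed the filter on low counts, and it was called lower. The 5 summed to 0.229 to 1.16 CPM with sorbate and 0.894 to 20.7 CPM in the controls. Their part in the result was not tested.

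The enzymes of hormones, vitamins and oxysterols, here Cyp46a1, Cyp39a1, Cyp17a1, Cyp21a1, Cyp26a1, Cyp26b1 and Cyp2r1, were low, and 1 of them rose. Of all members 33.9% were called higher, beside 6.14% of all tested genes. Cyp46a1, a cholesterol hydroxylase known from neurons, had 1.20, 1.51, 1.97 and 1.16 CPM in the sorbate libraries, against 0.249, 0.503, 0.338 and 0 CPM in the controls. It rested on 128 reads over the sorbate libraries and 21 over the controls (log2 fold change 2.45, SE 0.56, adjusted p = 0.0202). For Cyp46a1 the call failed when control 1 or 3, or sorbate 3 was left out (adjusted p = 0.0561 to 0.0612). Cyp39a1, an oxysterol hydroxylase of bile acid synthesis, had 18.3, 20.8, 21.9 and 33.1 CPM with sorbate, against 14.2, 16.1, 17.6 and 16.4 CPM in the controls, without overlap and without a call (log2 fold change 0.54, adjusted p = 0.0668). Of the steroid synthesis genes, 2 of 6 on the list passed the count limit. Cyp17a1 had 14.5 CPM with sorbate against 16.9 CPM in the controls (log2 fold change −0.23, adjusted p = 0.613), and Cyp21a1 had 2.88 CPM with sorbate against 1.89 CPM in the controls (log2 fold change 0.58, adjusted p = 0.621). Neither retinoic acid hydroxylase was called, Cyp26a1 (log2 fold change 0.45, adjusted p = 0.532) or Cyp26b1 (log2 fold change 1.05, adjusted p = 0.171). Cyp2r1, a vitamin D hydroxylase, had 10.0, 11.2, 10.8 and 13.4 CPM with sorbate, against 14.3, 15.4, 17.5 and 13.2 CPM in the controls (log2 fold change −0.41, adjusted p = 0.0657), and only sorbate 4 reached the range of the controls. Cyp2u1, Cyp20a1 and Cyp4b1 had log2 fold changes of 0.34, −0.16 and 0.19, and none was called.

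Known groupings cut across the subfamilies, and their lists share genes. Of 8 genes with expression around the central vein, 7 were called higher and 0 lower, at a median of 0.86 on the log2 scale. The exception was Cyp2c29. Of 11 tested targets of CAR and PXR, 6 were higher, with a median of 0.70, and of 3 AhR targets 1 was higher. Of 6 tested genes higher in female than in male mice, 0 were higher, 1 had a log2 fold change above 0 and the median was −0.26, and of 3 genes higher in males, 1 was called. Over all tested members 19 of 56 were higher and the median was 0.42, and 6.14% of all tested genes were called higher. The direction of the genes higher in females depended on control 2. Without it Cyp2a4, Cyp2b9 and Cyp39a1 had log2 fold changes of 2.05, 0.56 and 0.55, with Cyp39a1 called. Cyp2c40, Cyp17a1 and Cyp2c69 had −0.31, −0.43 and −0.51 in that fit. Cyp2a4 and Cyp2b9 were low, at means of 1.10 and 0.518 CPM with sorbate and 1.23 and 0.734 CPM in the controls. Markers of other liver cells are given for the same libraries, beside 6.3% of all tested genes called lower and 6.14% called higher. Kupffer cell markers, 3 of 6 tested called lower, summed to 117 to 230 CPM with sorbate and 163 to 401 CPM in the controls, and bile duct markers, 2 of 4 tested called lower, to 27.5 to 42.3 CPM and 52.0 to 248 CPM. Red cell markers, 4 of 5 called lower, summed to 251 to 373 CPM with sorbate and 331 to 1373 CPM in the controls. Sinusoidal endothelium markers, 1 of 5 called lower, summed to 87.6 to 109 CPM and 84.3 to 181 CPM, and 0 of 5 stellate cell markers were called. Gut markers, 2 of 2 tested called higher, summed to 93.8 to 165 CPM with sorbate and 53.5 to 80.7 CPM in the controls. Control 2 was the lowest control for the Kupffer cell, bile duct, red cell and endothelium sums, at 163, 52.0, 331 and 84.3 CPM, and for the neutrophil sum, at 0.894 CPM. The other 3 controls lay above all sorbate libraries in these 5 sums, at 302 to 401, 123 to 248, 527 to 1373, 158 to 181 and 11.5 to 20.7 CPM. For the stellate cell sum control 2 was also the lowest control, at 119.9 CPM beside 139 to 164 CPM. The sorbate libraries had 120.5 to 193 CPM there. The part of these cells in the P450 results was not tested.

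Partners and regulators of the enzymes changed as well. Of 31 listed genes 29 were tested, 9 were called higher and 3 lower, beside 6.14% and 6.3% of all genes, and their median log2 fold change was 0.19. Por, the oxidoreductase that feeds electrons to these enzymes, had 491, 365, 408 and 571 CPM in the sorbate libraries, against 193, 96.5, 173 and 150.2 CPM in the controls (log2 fold change 1.58, SE 0.22, adjusted p = 0.00245). Control 2 was the lowest control for Por, where it was the highest for 18 of the 19 called P450 genes. Cyb5a, a second electron donor, also rose (log2 fold change 0.50, adjusted p = 0.0239), as did the haem synthesis enzyme Fech (log2 fold change 0.44, adjusted p = 0.0385), while Cyb5b fell (log2 fold change −0.58, adjusted p = 0.0296). For these 3 the call failed at times, for Cyb5a when control 1 or 3, or sorbate 1, 3 or 4 was left out (adjusted p = 0.0561 to 0.0847), for Fech when control 1, 3 or 4, or sorbate 1, 2, 3 or 4 was left out (adjusted p = 0.0508 to 0.105) and for Cyb5b when control 1 or 3, or sorbate 1, 3 or 4 was left out (adjusted p = 0.0715 to 0.0934) or with library size alone (adjusted p = 0.0783). Alas1, which sets the rate of haem synthesis, had 314, 481, 775 and 933 CPM with sorbate, against 323, 464, 440.0 and 229 CPM in the controls and was not called (log2 fold change 0.78, adjusted p = 0.140). Among the receptors, Nr1i3, which encodes CAR, rose, with 274, 213, 181 and 264 CPM in the sorbate libraries, against 48.6, 77.6, 53.6 and 59.8 CPM in the controls (log2 fold change 1.96, SE 0.18, adjusted p = 3.50e-04). Nr1i2, which encodes PXR, had 87.6, 98.0, 78.3 and 77.3 CPM with sorbate, against 69.4, 57.4, 75.7 and 59.0 CPM in the controls. The groups did not overlap and it missed the threshold (log2 fold change 0.38, SE 0.13, adjusted p = 0.0718). Ahr had 32.2, 24.6, 22.6 and 33.9 CPM with sorbate, against 81.6, 20.4, 69.7 and 43.6 CPM in the controls and was not called (log2 fold change −0.93, adjusted p = 0.101), with control 2 below every sorbate library. Without control 2 Ahr was called lower (log2 fold change −1.19, adjusted p = 0.00126). Tiparp, a target and repressor of AhR, fell (log2 fold change −1.21, adjusted p = 0.0402), but not when control 1, 3 or 4, or sorbate 1, 2, 3 or 4 was left out (adjusted p = 0.0543 to 0.124) or with library size alone (adjusted p = 0.0501). The Tiparp groups overlapped, with control 2 at 6.65 CPM beside 5.69 to 8.05 CPM with sorbate. The clock-output factors of the PAR-bZIP family, known to control P450 genes and Nr1i3 in mouse liver, all rose: Dbp (log2 fold change 3.16, adjusted p = 0.00569), Tef (log2 fold change 2.01, adjusted p = 7.54e-04) and Hlf (log2 fold change 0.97, adjusted p = 0.00224). Nfil3, which binds the same sites as a repressor, fell (log2 fold change −1.23, adjusted p = 0.0163), but not when control 3 or 4, or sorbate 3 or 4 was left out (adjusted p = 0.0505 to 0.0558). The Nfil3 groups overlapped, with control 2 at 17.8 CPM and sorbate 2 at 19.9 CPM. Cebpa (log2 fold change 0.66, adjusted p = 0.0430) and Nfe2l2, the regulator of antioxidant genes (log2 fold change 0.76, adjusted p = 0.00408), rose too. For Cebpa the call failed when control 1, 3 or 4, or sorbate 1, 2, 3 or 4 was left out (adjusted p = 0.0566 to 0.131). Por, Nr1i3, Nfe2l2, Dbp, Tef and Hlf were called in every alternative tried. The 3 genes called lower, Cyb5b, Tiparp and Nfil3, were not called in the surrogate variable fit described below. The clock hour of collection is not given in the sources used here.

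**Figure D4:**
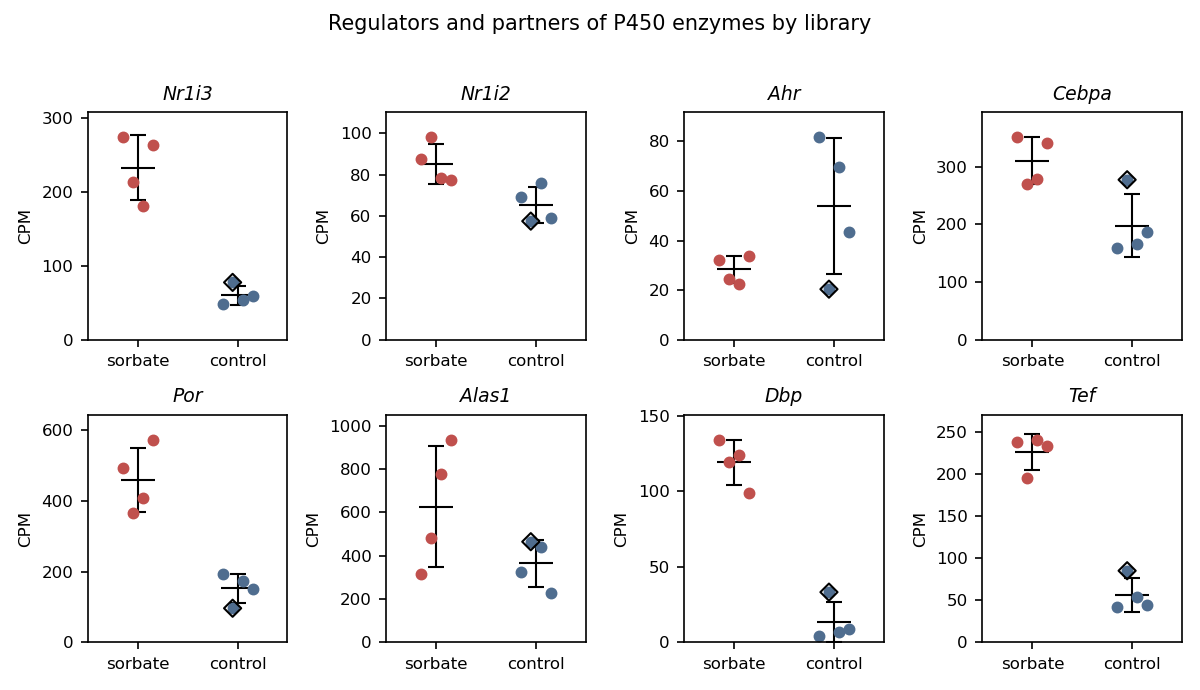
Level in CPM (y axis, from 0) of 8 regulators and partners of P450 enzymes in the 4 sorbate and 4 control libraries; points are libraries, the outlined diamond is control 2, and lines with bars are the mean and SD. Groups separate for Nr1i3, Nr1i2, Por, Dbp and Tef, and overlap for Ahr, Cebpa and Alas1.

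How firmly the 19 calls stood differed between genes. Control 2 was the highest control in 18 of the 19 called members (94.7%), beside 68.5% of the 818 genes called higher and 34.1% of all tested genes. The exception was Cyp2c37. Without control 2 all 19 stayed called and the members called higher numbered 26, beside 2053 of 13559 tested genes called higher. Without another library fewer of the 19 stayed called: 9, 7 and 9 without controls 1, 3 and 4, and 11, 14, 9 and 8 without sorbate 1 to 4. Over all tested genes those fits called 332 to 555 higher, in place of 818. The genes called in all 8 such fits were Cyp2a5, Cyp2g1, Cyp3a25, Cyp3a59, Cyp2c23, Cyp2c54 and Cyp2e1, and these 7 were also called in every other alternative tried. With a surrogate variable as covariate, an axis of shared variation estimated from all genes, 8 members were higher, these 7 and Cyp4f15. Over all 13312 tested genes 323 were higher in that fit. The variable lay at 0.0620 to 0.283 with sorbate, against 0.479 in control 2 and −0.512 to −0.362 in controls 1, 3 and 4, so it moves with the groups as well. In that fit Cyp2a5 had a log2 fold change of 2.42, adjusted p = 1.19e-04, Cyp2e1 of 0.76, adjusted p = 0.0246 and Cyp3a11 of 1.32, adjusted p = 0.0876. What set control 2 apart from the other controls was not tested.

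**Figure D5:**
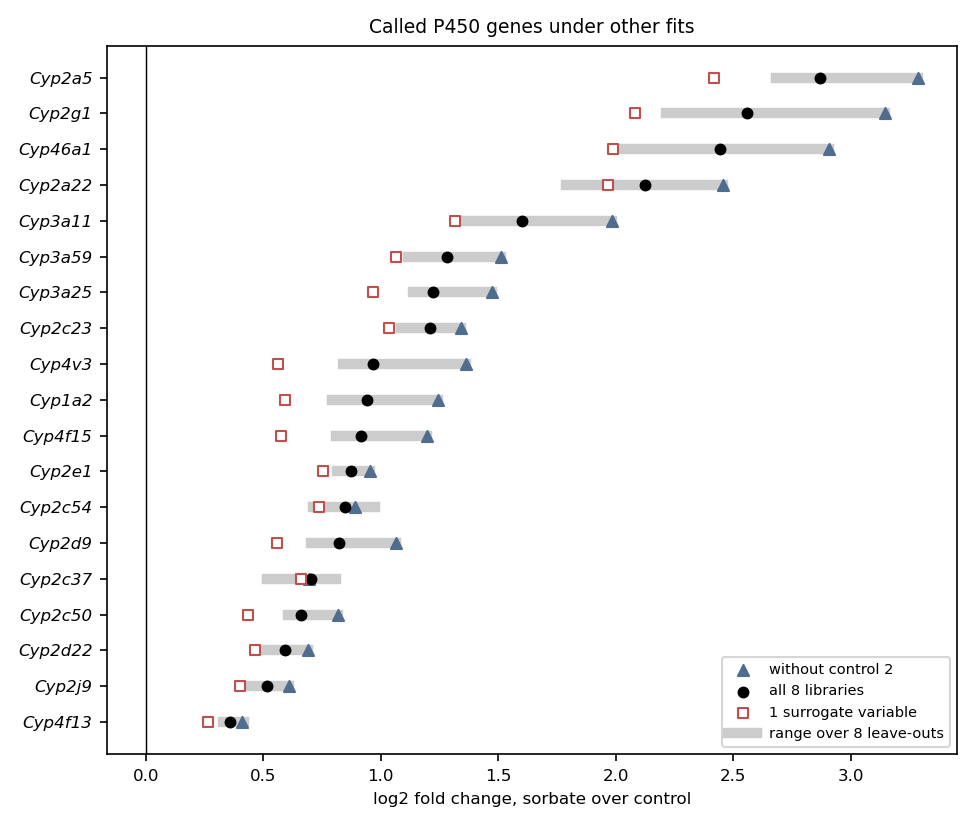
Log2 fold change of sorbate over control (x axis) of the 19 P450 genes called higher, in the fit of all 8 libraries (filled circles), without control 2 (triangles) and with 1 surrogate variable (open squares); grey bars span the 8 fits that leave out 1 library each. All values lie above 0; those without control 2 are mostly at the upper end of the grey bars, as for Cyp2a5 at 3.29 beside 2.87 with all libraries.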

How the data were processed

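The deposited table holds raw counts of reads per gene for poly(A) RNA libraries made with TruSeq kits from frozen liver and sequenced as single reads, per the labels' protocols. The submitters' processing notes name FastQC, HISAT2 2.1.0, Subread, edgeR and the build GRCm38. The counting settings, the annotation and the use of strand were not given in the sources used here, so reads of near-identical or overlapping genes are uncertain. Columns were matched to samples by name, and 4 other columns of per-sample values, which fit none of the samples, stayed unused. Libraries of a group differed by far more than counting error, with a chi-square per gene of 22.9 to 218, and each counted as 1 replicate. Genes were filtered with filterByExpr (minimum count 10), scaled by TMM and tested with edgeR 4.0.16 in R 4.3.3 (quasi-likelihood, two-sided, Benjamini-Hochberg over all tested genes, threshold 0.05), and the code was tested on simulated data. Over all tested genes the median log2 fold change was −0.019 with TMM and 0.11 with library size alone; the 19 calls held under both. Alternatives were DESeq2 1.42.0, 1 surrogate variable (sva 3.50.0), other scalings, no filter, a threshold of 0.1 and leaving out each library; for the partner and regulator genes they were added after the data were seen. Coordinates, exon lengths and shared 50-base windows come from GENCODE vM21 on GRCm38. Members and lists were chosen with earlier results of these data known. Named by rule were called members, the 2 most abundant of each subfamily, members without overlap changed at least 2-fold, called pathway genes, Nr1i3, Nr1i2, Ahr, Por, Alas1, Saa1, Dbp and read-sharing paralogs; other members are named to account for all of them.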

Additional observations from a re-analysis of the deposited data

Results flagged for a closer look

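In 116 groups of 4 libraries, those of the named genes and subfamily sums, 12 held a library far from the other 3 by Dixon's criterion, where chance gives about 1 in 20 groups, or 5.8. The groups are not independent, because all come from the same 8 libraries and the subfamily sums contain named genes. The count of 12 beside 5.8 is therefore no test. Of the 12, 9 were in control 2. It lay above the other controls for Cyp2a12 with 590.4 CPM, Cyp2c50 with 403 CPM, Cyp2c54 with 83.9 CPM, Cyp3a25 with 347 CPM, Cyp4f15 with 134 CPM, Cyp4v3 with 430.1 CPM and the sum of the Cyp2a genes with 718.5 CPM. The other controls lay between 325 and 357 CPM for Cyp2a12, 277 and 295 CPM for Cyp2c50, 77.1 and 78.0 CPM for Cyp2c54, and 197 and 206 CPM for Cyp3a25. For Cyp4f15 they lay between 68.3 and 79.3 CPM and for Cyp4v3 between 182 and 199 CPM. Control 2 was also above the other controls for Dbp, with 33.3 CPM beside 4.53 to 8.76 CPM, and below them for Nfil3, with 17.8 CPM beside 34.9 to 37.8 CPM. Tef was low in sorbate 2, with 194 CPM beside 233 to 239.8 CPM in the other sorbate libraries, and Saa1 was low in sorbate 3, with 111 CPM beside 214 to 223 CPM. The remaining library was sorbate 2 for Cyp3a11, with 1412 CPM beside 823 to 906 CPM in the other sorbate libraries.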

How the results depend on the processing

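The count of 19 higher members was 19 with RLE factors, 20 without a filter, and 23 by library size alone, by DESeq2 and at a threshold of 0.1. It moved to 8 with the surrogate variable, and ran from 7 (without control 3) to 26 (without control 2) when 1 library was left out. Over all tested genes, those called higher numbered 820 with RLE factors, 886 without a filter, 1300 by library size alone and 1208 by DESeq2. They numbered 323 with the surrogate variable. Leaving out 1 library gave 332 (without control 3) to 2053 (without control 2), in place of 818. The count of 0 lower members became 1 by DESeq2 and 2 at a threshold of 0.1 (Cyp4f18 and Cyp2r1), and ran from 0 to 2 with 1 library left out: Cyp4f16 without control 2 (log2 fold change −1.01), Cyp2c69 without sorbate 1 (−1.21), and Cyp2d40 and Cyp4f18 without sorbate 2 (−0.50 and −1.74). Over all tested genes those called lower numbered 1243 by DESeq2 and 357 to 1915 with 1 library left out, in place of 838. No called gene changed direction under any alternative. Of genes that were not called, Cyp2b9 ran from −1.002 (without sorbate 2) to 0.56 (without control 2) and Cyp2c29 from −0.069 (without control 4) to 0.32 (without control 2), and with the surrogate variable Cyp2c29, Cyp2c67 and Cyp2j6 were at −0.030, −0.033 and −0.047; the cause was not tested. Single genes were followed under the alternatives for 31 members: those called, the 2 most abundant of each subfamily, and those changed at least 2-fold without overlap. Of their values, 310 kept direction and side of the threshold, 78 lost a call, 9 gained one and 5 reversed. Other members changed sign too, among them Cyp2a4, at 2.05 without control 2. With the surrogate variable Cyp2c38, Cyp2c39, Cyp17a1, Cyp3a13 and Cyp2d11 were at 1.20, 1.16, 0.35, 0.10 and 0.22. In the main fit these 5 were at −0.058, −0.47, −0.23, −0.19 and −0.33. Of the listed partners and regulators, under the same alternatives (added after the data were seen), 6 to 10 were higher in place of 9, with 6 to 10 when 1 library was left out. Lower ones numbered 1 with library size alone, 0 with the surrogate variable, 5 by DESeq2 and 0 to 5 with 1 library left out, in place of 3. The 110 values of the subfamily sums moved by less than the spread between libraries of a group. The setting that kept only tested members removed Cyp2s1 alone, so sums without that gene could not move under it. Depth limits Cyp2g1, Cyp46a1, Cyp2a22 and Cyp4f18, whose groups hold 19 to 194 counts. No paired analysis was possible because the labels give no replicate numbers that tie a sorbate library to a control.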

Other observations

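The count limit left 29 P450 genes out of every comparison, 12 with 0 counts in all libraries and 17 with fewer than 40 but more than 0. For some of the 17, the reads of every library are given. Cyp3a16 had 1 read each in sorbate 1 and sorbate 4, against 9 in control 2, and 0 in the other 5 libraries. Cyp3a41a had 0 reads in the 4 sorbate libraries and, in the controls, 7 in control 2 and 2 in control 4. Cyp2b13 had 1 read in sorbate 1 and, in the controls, 7 in control 2 and 2 in control 3. Cyp3a44 had 0, 4, 3 and 0 reads in the sorbate libraries, against 1, 7, 4 and 2 reads in the controls. Cyp4f39 had 0, 1, 0 and 1 reads in the sorbate libraries, against 0, 6, 2 and 1 reads in the controls. Control 2 held most of the reads of Cyp3a16, Cyp3a41a, Cyp2b13 and Cyp4f39, but not of Cyp3a44. All but Cyp4f39 are known for higher expression in female than in male mouse liver, and the 5 genes were named after their counts were seen. Cyp3a41b, also on the list of genes higher in females, had 1 read each in control 2 and control 4 and 0 over the sorbate libraries. Among the counted members, Cyp2a4 and Cyp2b9, also known as higher in females, had their highest level of all 8 libraries in control 2, with 4.08 and 1.84 CPM, while Cyp2c69, Cyp2c40, Cyp17a1 and Cyp39a1 did not.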
